A study of Homo sapiens with 3 samples.

Results

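Metallothioneins and the genes that sense and move zinc around them were followed in HCT116 cells, a human line established from a colorectal carcinoma, after small interfering RNA (siRNA) against DUOX2. The 9 genes are those whose name in the deposited gene table is MT1E, MT1F, MT1G, MT1M, MT1X, MT2A, MTF1, SLC30A1 or SLC39A10, out of 58302 genes. DUOX2 is an NADPH oxidase that makes hydrogen peroxide. The study compared 3 RNA-seq libraries of total RNA: 1 from cells given siRNA 1 against DUOX2, 1 from cells given siRNA 2, which targets it with another sequence, and 1 from cells given a control siRNA. The labels do not state whether separate cultures were used. A p-value here rests on how far the 2 siRNA libraries lie apart, moderated by the spread over all genes. That distance may be technical and also holds any difference between the 2 siRNA sequences. It does not measure variation between cultures given the same siRNA.

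Metallothioneins are small proteins rich in cysteine that bind zinc and copper, and oxidants such as hydrogen peroxide can release zinc from their thiols. MTF1 is a zinc finger transcription factor that senses free zinc through its fingers and, once zinc is bound, switches on metallothionein genes and SLC30A1 through short promoter sequences called metal response elements. SLC30A1 (ZnT1) exports zinc across the plasma membrane and SLC39A10 (ZIP10) imports it, and in mouse MTF1 holds the Slc39a10 gene down.

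The 6 metallothionein members lie on chromosome 16 (GRCh38), at 56608199 to 56609497 for MT2A, 56625475 to 56627112 for MT1E, 56632233 to 56633986 for MT1M, 56657694 to 56660698 for MT1F, 56666731 to 56668065 for MT1G and 56682424 to 56684196 for MT1X. MT1G is on the minus strand and the other 5 on the plus strand. Their coding sequences, each of 186 bases with the stop codon in GENCODE 29, are printed because the results turn on reads being told apart between near copies. Capitals mark the bases that differ from MT2A at the same position.
MT2A: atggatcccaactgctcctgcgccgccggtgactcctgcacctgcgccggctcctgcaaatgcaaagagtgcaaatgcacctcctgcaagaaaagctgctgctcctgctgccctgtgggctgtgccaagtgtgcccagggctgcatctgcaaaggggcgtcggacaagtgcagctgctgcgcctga
MT1E: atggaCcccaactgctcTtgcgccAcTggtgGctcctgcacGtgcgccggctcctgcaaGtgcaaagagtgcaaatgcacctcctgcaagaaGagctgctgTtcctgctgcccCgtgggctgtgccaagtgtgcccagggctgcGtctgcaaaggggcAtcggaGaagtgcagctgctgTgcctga
MT1X: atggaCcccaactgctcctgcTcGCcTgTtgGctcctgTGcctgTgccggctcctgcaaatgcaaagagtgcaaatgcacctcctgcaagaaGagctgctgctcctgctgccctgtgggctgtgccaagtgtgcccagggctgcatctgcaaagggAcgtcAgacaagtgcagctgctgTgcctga
MT1F: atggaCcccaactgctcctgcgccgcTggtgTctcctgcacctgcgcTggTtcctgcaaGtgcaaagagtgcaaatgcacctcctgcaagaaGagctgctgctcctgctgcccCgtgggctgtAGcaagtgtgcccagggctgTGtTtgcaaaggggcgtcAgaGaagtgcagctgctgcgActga
MT1G: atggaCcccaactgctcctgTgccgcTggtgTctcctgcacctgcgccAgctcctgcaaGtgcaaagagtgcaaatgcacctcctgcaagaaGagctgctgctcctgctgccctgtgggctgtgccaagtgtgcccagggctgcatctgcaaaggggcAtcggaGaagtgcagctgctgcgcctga
MT1M: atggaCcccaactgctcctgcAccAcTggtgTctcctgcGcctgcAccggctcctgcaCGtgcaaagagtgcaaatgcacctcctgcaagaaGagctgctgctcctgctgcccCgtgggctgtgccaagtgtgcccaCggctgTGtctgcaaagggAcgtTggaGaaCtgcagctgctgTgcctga

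MT1G differed from MT2A at 9 coding bases (95.2% identity), MT1E at 14, MT1X at 14 (92.5% each), MT1F at 16 (91.4%) and MT1M at 19 (89.8%). Among the 5 MT1 members identity ran between 88.7 and 94.6%. Windows of 50 bases were taken over their whole transcripts. The share that occurred exactly in a transcript of another gene was 3.02% in MT2A, 7.10% in MT1E, 1.22% in MT1F and 18.3% in MT1X. In MT1G it was 16.5% and in MT1M 9.87%. Most of the shared MT1X windows, 273 of 341, came from AC026461.1, a gene on the same strand that covers 18.1% of the exon bases of MT1X and had 0 counts in every library. How the authors treated reads that fit several places is not given in the sources used here, so the split of reads between metallothioneins is uncertain and the family was also summed.

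MTF1 lies on the minus strand of chromosome 1 at 37809567 to 37859620, SLC30A1 on the minus strand of chromosome 1 at 211571568 to 211578742, and SLC39A10 on the plus strand of chromosome 2 at 195575977 to 195737702 (GRCh38). RefSeq promoter windows on GRCh38.p14, of 250 bases before and 50 after a RefSeq start, were matched for 5 of the 9 members. These were MT2A, MT1X, SLC30A1, SLC39A10 and MTF1. The RefSeq starts differ from the ends of the gene spans given here, which come from the deposited gene table. The MT2A and SLC39A10 windows lie inside the gene's span, and the SLC30A1 window lies before it. Matches before the start are counted from the RefSeq start. The core of the metal response element was searched in them as TGCACNC and TGCGCNC on both strands. The bases before the start are printed, 5′ to 3′ on the gene's strand, for the 3 members whose window held more than 1 match, with the matches in capitals.
MT2A (chr16:56608334-56608583, plus strand): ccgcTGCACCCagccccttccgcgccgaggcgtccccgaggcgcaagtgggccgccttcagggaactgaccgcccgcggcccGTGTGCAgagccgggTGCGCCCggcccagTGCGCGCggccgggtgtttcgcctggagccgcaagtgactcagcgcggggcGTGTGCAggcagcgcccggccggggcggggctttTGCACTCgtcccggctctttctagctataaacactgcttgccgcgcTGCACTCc
MT1X (chr16:56682220-56682469, plus strand): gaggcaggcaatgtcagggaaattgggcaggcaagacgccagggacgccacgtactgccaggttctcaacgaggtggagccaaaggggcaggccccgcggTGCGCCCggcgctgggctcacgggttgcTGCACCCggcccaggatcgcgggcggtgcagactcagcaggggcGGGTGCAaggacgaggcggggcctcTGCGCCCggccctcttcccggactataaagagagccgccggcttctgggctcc
SLC30A1 (chr1:211579162-211579411, minus strand): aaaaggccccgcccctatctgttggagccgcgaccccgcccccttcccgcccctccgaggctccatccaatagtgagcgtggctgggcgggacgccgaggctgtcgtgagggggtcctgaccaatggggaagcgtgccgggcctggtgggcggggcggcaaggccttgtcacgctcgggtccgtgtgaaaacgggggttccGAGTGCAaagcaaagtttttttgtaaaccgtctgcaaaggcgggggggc

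The MT2A window held 8 matches, 7 of them before the start, and 0.0199% of all 35116 windows held 8 or more. MT1X held 4 matches, all before the start, a number reached by 0.601% of windows. SLC30A1 held 2, of which 1 lay before the start, and 8.60% of windows held at least 2. The SLC39A10 windows held 0 and 1 (29.6% of windows held at least 1), and the MTF1 window held 0. A match is a stretch of letters only, and whether matches bear on the levels measured below was not tested.

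The libraries held 19130768 counts with siRNA 1, 18832672 with siRNA 2 and 17589502 with the control siRNA. DUOX2 itself had 2, 0 and 2 counts in the siRNA 1, siRNA 2 and control libraries, all at or under 3 counts, the most that an observed 0 is taken to allow, so the targeted gene gives no check of the labels and a difference in it was not detectable at this depth. All 7 markers of a colorectal epithelial line were above 3 counts, with a summed level of 3284 CPM (counts relative to the library's sum) with siRNA 1, 4870 with siRNA 2 and 5348 in the control. The library protocol in the labels speaks of retinas, and 4 of 7 retina markers were at 0 in every library, with a summed level of 4.44, 5.73 and 8.30 CPM in the siRNA 1, siRNA 2 and control libraries, while no leukocyte, fibroblast or endothelium list summed to more than 3.24 CPM. The part of these marker levels in the results was not tested.

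Among the 7 members with enough counts to test, MT2A, the metallothionein with the most counts, was lower with both siRNAs (0.443 and 0.582 of the control level), and SLC30A1, the zinc exporter, was higher with both (1.77 and 1.60 times the control). MT1F, at a far lower count, was also lower with both. MT1E, MT1X and MTF1 stood between 1.04 and 1.20 times the control, and SLC39A10 at 1.12 and 1.42 times. No member passed the edgeR quasi-likelihood test at a Benjamini-Hochberg adjusted p of 0.05 over 17263 genes, where 0.0579% of all genes did (10 genes, 0.0174% higher and 0.0405% lower). At an unadjusted p under 0.05 in the same test 2 members passed, MT2A lower and SLC30A1 higher, while 26.0% of all genes did so, 11.5% higher and 14.5% lower. A total of 5 members were higher with both siRNAs and 2 lower with both, against 41.9% and 41.6% of all genes. None was 2-fold or more away from the control with both siRNAs, against 4.0% of all genes higher and 5.05% lower. The 2 members left, MT1G and MT1M, were not tested because they had 0 counts in all 3 libraries.

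**Figure D1:**
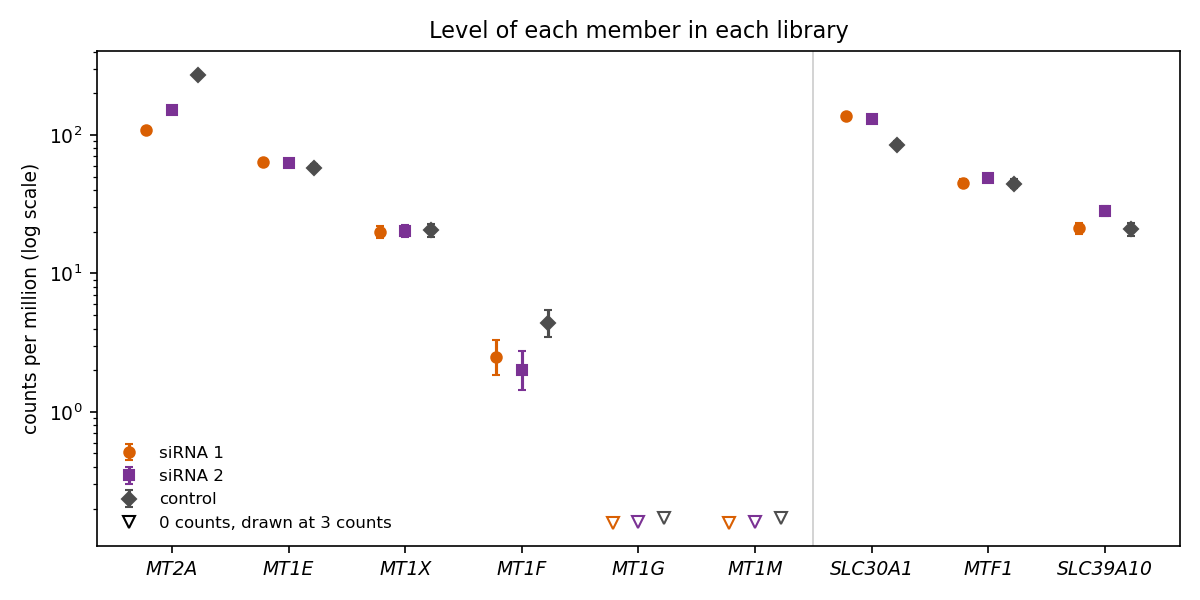
Levels of the 9 members in CPM on a log axis, with a point for the siRNA 1, siRNA 2 and control library of each gene. Bars are 95% exact Poisson intervals, and MT1G and MT1M, at 0 counts, are drawn at the level of 3 counts. MT2A stood at 109 and 152 CPM with the siRNAs and at 272 CPM in the control, and SLC30A1 at 137 and 131 CPM with the siRNAs and at 85.4 CPM in the control.

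MT2A is the metallothionein expressed most widely in human cells. It had 2090 counts with siRNA 1 and 2858 with siRNA 2, against 4781 in the control library. On the CPM scale this was 130.5 ± 30.1 with the siRNAs (SD, n = 2) and 272 in the control (n = 1). Both siRNA libraries lay below the control, and they also differed from each other, siRNA 1 being at 0.761 times the level with siRNA 2 (95% interval 0.719 to 0.805). The ratio to the control was 0.443 (0.421 to 0.466) with siRNA 1 and 0.582 (0.556 to 0.610) with siRNA 2. These exact intervals, like all those below, cover counting error only and leave out variation between cultures and libraries. They may be too narrow even for counting error, because PCR copies were not marked by molecular identifiers. In edgeR the log2 fold change was -0.96 ± 0.22 (SE), with an unadjusted p of 0.00588 and an adjusted p of 0.121. DESeq2, run as an alternative, gave a log2 fold change of -0.97 with an adjusted p of 0.0337, in a test that called 3.28% of all genes. In RNA from a whole culture, fewer cells with high MT2A and less MT2A RNA per cell cannot be told apart. The rank of MT2A by count among the genes of a library was 2050 with siRNA 1 and 1402 with siRNA 2, against 527 in the control.

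MT1E, an inducible member, lay close to the control. It had 1215 and 1182 counts with siRNA 1 and siRNA 2, against 1022 in the control, or 63.1 ± 0.53 CPM with the siRNAs (SD, n = 2) and 58.1 CPM in the control. The siRNA libraries were both above the control and were within counting error of each other, at a ratio of 1.07 (0.986 to 1.16). The ratio to the control was 1.20 (1.11 to 1.31) with siRNA 1 and 1.13 (1.04 to 1.23) with siRNA 2. The edgeR log2 fold change was 0.22 ± 0.21, with an adjusted p of 0.526.

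MT1X, another inducible member, had 382, 383 and 360 counts in the siRNA 1, siRNA 2 and control libraries. The CPM values were 20.0, 20.3 and 20.5 in the same order, so the direction depended on the scaling. With TMM scaling the edgeR log2 fold change was 0.08 ± 0.23 with an adjusted p of 0.847, and with total count scaling it was -0.02. The ratio to the control was 1.08 (0.928 to 1.25) with siRNA 1 and 1.04 (0.895 to 1.20) with siRNA 2, both intervals holding no change.

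MT1F was scarce, at 48 counts with siRNA 1 and 38 with siRNA 2, against 77 in the control. Both siRNA libraries lay below the control, at 0.632 times (0.431 to 0.917) and 0.481 times (0.317 to 0.718), and the edgeR log2 fold change of -0.85 ± 0.38 had an adjusted p of 0.218. The siRNA 1 library stood at 1.31 times the siRNA 2 library (0.841 to 2.07), so these libraries were within counting error of each other. With 1 library per siRNA, a difference between the siRNAs could not be told from a difference between libraries. MT1G and MT1M had 0 counts in all 3 libraries, which allows up to 0.157 CPM with siRNA 1, 0.159 with siRNA 2 and 0.171 in the control. By coding sequence MT1G is the closest of the 5 MT1 members to MT2A and MT1M the farthest.

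The 6 metallothionein members together had 3735 counts with siRNA 1 and 4461 with siRNA 2, against 6240 in the control. This sum is free of any exchange of reads between the 6 members. It is not free of reads that went to other metallothionein copies or were dropped for fitting several places. It stood at 0.606 times the control (0.582 to 0.632) with siRNA 1 and 0.696 times (0.670 to 0.724) with siRNA 2. Without MT2A the remaining 5 members had 1645 and 1603 counts with the siRNAs and 1459 in the control, or 1.14 times (1.06 to 1.23) and 1.07 times (0.996 to 1.15) the control. The difference in the family sum was therefore carried by MT2A, and the sum of the other members lay slightly on the opposite side.

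MT2A made up 56.0% of the metallothionein member counts with siRNA 1 (exact binomial interval 54.3 to 57.6%) and 64.1% with siRNA 2 (62.6 to 65.5%), against 76.6% in the control (75.5 to 77.7%). The 3 intervals do not overlap. MT1E made up 32.5% and 26.5% with siRNA 1 and siRNA 2, against 16.4% in the control. The share of MT1X was 10.2% and 8.59% with the siRNAs and 5.77% in the control. MT1F took 1.29% and 0.852% with the siRNAs and 1.23% in the control. In ratios within a library, which need no scaling between libraries, there were 1.72 and 2.42 MT2A counts per MT1E count with siRNA 1 and siRNA 2, against 4.68 in the control. MT1E and MT1X kept nearly the same proportion, at 3.18 and 3.09 MT1E counts per MT1X count with the siRNAs and 2.84 in the control, with overlapping intervals (2.83 to 3.58, 2.75 to 3.47 and 2.52 to 3.21).

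**Figure D2:**
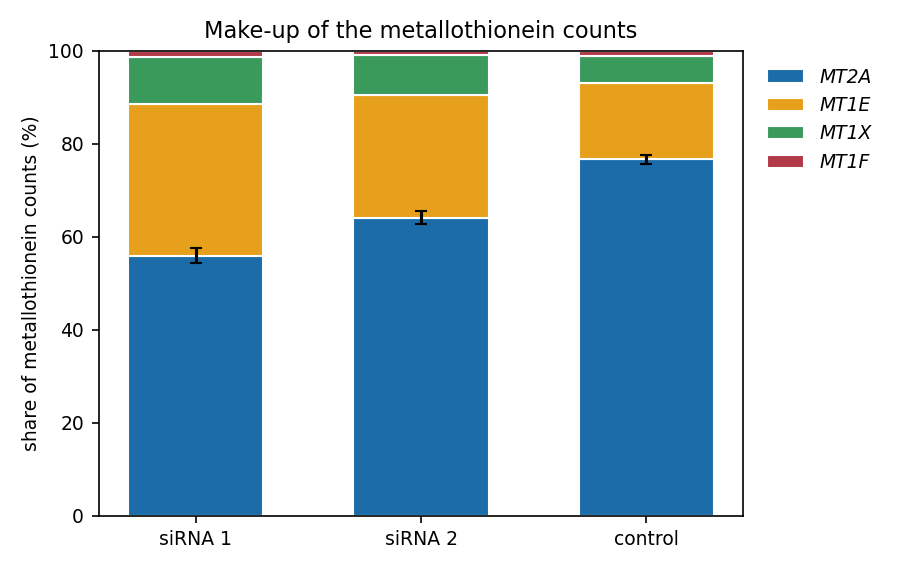
Share of each gene in the counts of the 6 metallothionein members, in percent, for the siRNA 1, siRNA 2 and control libraries (1 library each). MT2A held 56.0% and 64.1% with the siRNAs and 76.6% in the control, and MT1E held 32.5% and 26.5% with the siRNAs and 16.4% in the control.

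Other metallothionein genes and pseudogenes added little to the counts. Of the 15 in the table, 3 had at least 10 counts in a library. MT1A, between MT1M and MT1F in the cluster, had 72 counts with siRNA 1 and 122 with siRNA 2, against 103 in the control, so the siRNA libraries lay on either side of the control (edgeR adjusted p 0.888). MT2P1, a processed copy of MT2A on chromosome 4, had 19 and 35 counts with siRNA 1 and siRNA 2 and 12 in the control, and 15.7% of its 50-base windows are shared with another gene. MT1P3 had 11 and 15 counts with the siRNAs and 9 in the control, with 58.6% of its windows shared and 29.9% of its exon bases overlapped by MMP24OS on the opposite strand. MT3, the brain metallothionein, named after its values were seen, had 3 and 4 counts with the siRNAs and 5 in the control. Over all 21 metallothionein genes and pseudogenes the sum was 3844 and 4641 counts with siRNA 1 and siRNA 2, against 6379 in the control.

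**Figure D3:**
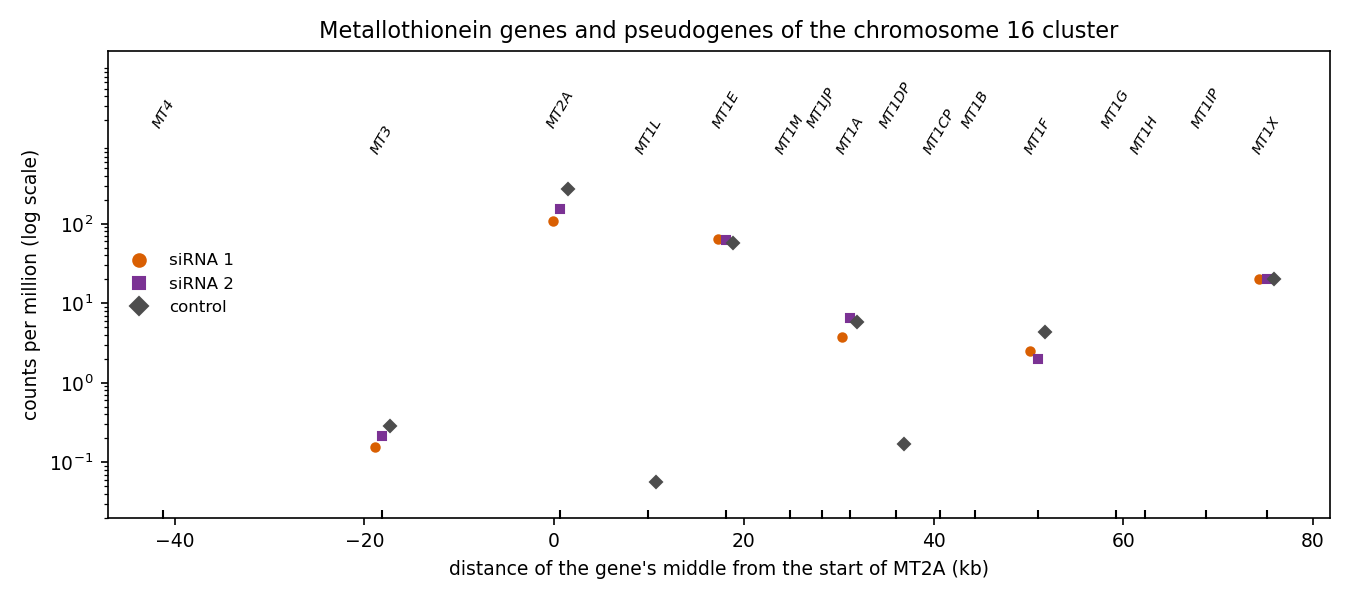
CPM, on a log axis, of the metallothionein genes and pseudogenes of the chromosome 16 cluster, placed by the distance of the gene's middle from the start of MT2A in kilobases, with points of the 3 libraries set slightly apart. Genes with no point had 0 counts. The siRNA and control points are apart at MT2A and MT1F and close together at MT1E and MT1X, which lie on either side of MT1F.

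MTF1, the zinc sensor itself, had 858 counts with siRNA 1 and 925 with siRNA 2, against 785 in the control. Scaled to library totals, the CPM values were 44.8 and 49.1 with the siRNAs and 44.6 in the control. The siRNA mean was 47.0 ± 3.02 (SD, n = 2), so on this scale the control lay within 1 SD of it. With TMM scaling the ratio to the control was 1.11 (1.004 to 1.22) with siRNA 1 and 1.15 (1.04 to 1.26) with siRNA 2. Both intervals lay above the control level. The edgeR log2 fold change was 0.17 ± 0.22, with an adjusted p of 0.631. RNA levels do not report the zinc-bound, nuclear state in which MTF1 acts.

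SLC30A1 stood on the other side of the control from MT2A; both are known targets of MTF1. It had 2617 counts with siRNA 1 and 2465 with siRNA 2, against 1502 in the control, or 133.8 ± 4.18 CPM with the siRNAs (SD, n = 2) and 85.4 CPM in the control (n = 1). Both siRNA libraries lay above the control. They also differed from each other beyond counting error, siRNA 1 being at 1.10 times the level with siRNA 2 (1.04 to 1.17). The ratio to the control was 1.77 (1.66 to 1.88) with siRNA 1 and 1.60 (1.5 to 1.71) with siRNA 2. In edgeR the log2 fold change was 0.75 ± 0.20, with an unadjusted p of 0.0114 and an adjusted p of 0.129. Within a library there were 1.25 and 0.862 SLC30A1 counts per MT2A count with siRNA 1 and siRNA 2, against 0.314 in the control.

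SLC39A10, the importer, had 405 counts with siRNA 1 and 534 with siRNA 2, against 367 in the control. The siRNA 1 library was within counting error of the control, at 1.12 times (0.968 to 1.29), and the siRNA 2 library was above it at 1.42 times (1.24 to 1.62). The siRNA libraries also differed from each other, at a ratio of 0.789 (0.692 to 0.899). The edgeR log2 fold change was 0.34 ± 0.26, with an adjusted p of 0.424. There were 6.46 and 4.62 SLC30A1 counts per SLC39A10 count with siRNA 1 and siRNA 2, against 4.09 in the control.

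Levels of different genes were compared per length. By the deposited FPKM (counts scaled to gene length and library total), MT2A stood at 35.6 and 49.4 with siRNA 1 and siRNA 2, against 88.5 in the control. MT1E stood at 41.5 and 41.0 FPKM with the siRNAs and 37.9 in the control, and SLC30A1 at 25.0 and 23.9 with the siRNAs and 15.6 in the control. MT1X was at 6.60, 6.72 and 6.77 FPKM in the siRNA 1, siRNA 2 and control libraries, MTF1 at 5.35, 5.86 and 5.32, SLC39A10 at 2.27, 3.05 and 2.24, and MT1F at 0.837, 0.673 and 1.46. By this scale MT1E stood above MT2A with siRNA 1. The lengths behind the FPKM add up every distinct exon of a gene even where exons overlap, which gives MT2A 3073 bases where its merged exons hold 1299 and MT1E 1532 bases where they hold 1052. Per kilobase of merged exons MT2A stayed above MT1E with siRNA 1 (84.1 against 60.4 CPM per kilobase). MT1A, which is not a member, is short and stood above MT1X by FPKM, at 9.50, 16.4 and 14.8 in the siRNA 1, siRNA 2 and control libraries. Per kilobase of merged exons MT1A was below MT1X with siRNA 1 (9.50 against 11.3 CPM per kilobase). On both scales the order was MT2A, MT1E and then SLC30A1 with siRNA 2 and in the control, and MTF1, SLC39A10 and MT1F were the lowest 3 members with counts in all libraries.

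Fold changes in these libraries followed the GC content of the transcripts, with GC-poor genes tending to be higher with the siRNAs, and the members differ widely in GC. SLC30A1 (38.0% GC), SLC39A10 (37.6%) and MTF1 (46.7%) lie below the GC of MT1E (53.5%), MT1X (53.7%), MT2A (53.9%) and MT1F (58.2%). At the GC of SLC30A1 the trend over all genes was at a log2 fold change of 0.55 with siRNA 1 and 0.43 with siRNA 2, and SLC30A1 itself was at 0.82 and 0.68, which leaves 0.27 and 0.24 beyond the trend. At the GC of MT2A the trend was at -0.33 and -0.25 and MT2A at -1.17 and -0.78, which leaves -0.84 and -0.53. MT1E, at 0.27 and 0.17 as measured, was at 0.57 and 0.40 beyond the trend, and MT1X, at 0.10 and 0.05, was at 0.42 and 0.29. MT1F was at 0.01 and -0.52 beyond the trend, MTF1 at -0.02 and 0.07, and SLC39A10 at -0.41 and 0.06. MT2A and SLC30A1 therefore kept their directions with both siRNAs, and MT1F, MTF1 and SLC39A10 did not. MT2A, MT1E and MT1X have nearly the same GC content, so the gap between MT2A and the other 2 is nearly as large with and without the trend.

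**Figure D4:**
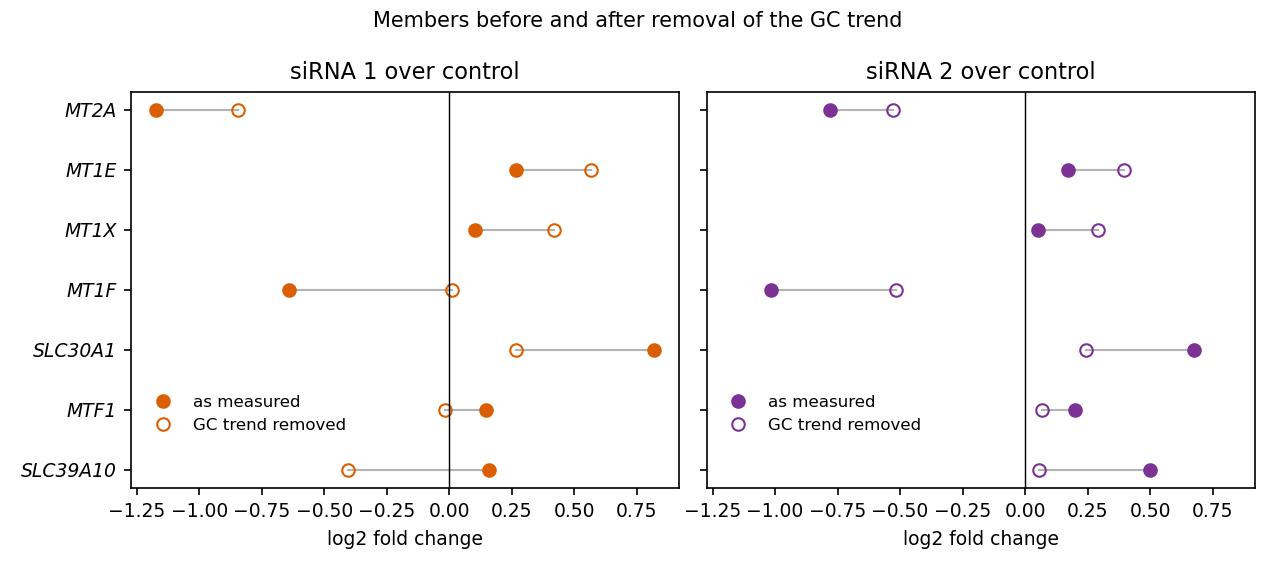
Log2 fold change over the control for the 7 tested members, with siRNA 1 on the left and siRNA 2 on the right. Filled points are as measured and open points have the trend on GC content removed. MT2A stays below 0 (-0.84 and -0.53 after removal), SLC30A1 comes closer to 0 (0.27 and 0.24), and MT1E moves away from it (0.57 and 0.40).

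Other zinc exporters of the SLC30 family and TMEM163 lay on both sides of the control. Of the 10 listed, 9 were tested and none passed edgeR, as 0.0579% of all genes did. With both siRNAs 5 were higher and 3 lower, against 41.9% and 41.6% of all genes. None was 2-fold away with both, against 4.0% of all genes higher and 5.05% lower. The exporters' median log2 fold changes were 0.36 and 0.25 for siRNA 1 and siRNA 2, against 0.02 and -0.01 for all genes tested. With the GC trend removed these medians were -0.10 and -0.07. SLC30A9, a mitochondrial zinc transporter, had 3396 and 2926 counts with siRNA 1 and siRNA 2, against 1427 in the control (edgeR log2 fold change 1.14 ± 0.22, adjusted p 0.112). SLC30A2, which loads zinc into vesicles, had 67 and 63 counts with the siRNAs and 120 in the control (adjusted p 0.170 in edgeR). TMEM163, a zinc efflux protein, had 215 and 171 counts with the siRNAs and 327 in the control (adjusted p 0.171 in edgeR). Beyond the GC trend SLC30A9 was at log2 fold changes of 0.76 and 0.60 with siRNA 1 and siRNA 2, TMEM163 at -0.59 and -0.98, and SLC30A2 at -0.10 and -0.41.

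Of the 13 other zinc importers of the SLC39 family, 10 were tested. None passed edgeR, as 0.0579% of all genes did. With both siRNAs 2 were higher and 5 lower, against 41.9% and 41.6% of all genes. The medians on the log2 scale were 0.34 for siRNA 1 and -0.17 for siRNA 2. SLC39A8 (ZIP8), which carries zinc, manganese and cadmium into cells, had 1470 and 1479 counts with siRNA 1 and siRNA 2, against 586 in the control. It was the 1 importer at least 2-fold higher with both, at 2.54 and 2.45 times, as were 4.0% of all genes. Its edgeR log2 fold change was 1.32 ± 0.22, with an adjusted p of 0.109. Beyond the GC trend it was at 1.07 and 1.08. SLC39A13 had 285 and 279 counts with the siRNAs and 514 in the control, and SLC39A3 had 186 and 248 with the siRNAs and 383 in the control (edgeR adjusted p 0.126 and 0.149). Beyond the GC trend SLC39A13 was at 0.15 and -0.17 with siRNA 1 and siRNA 2, against -0.83 and -0.91 as measured, so its direction with siRNA 1 turned. SLC39A3 was at -0.38 and -0.17, against -1.02 and -0.66 as measured. SLC39A1, SLC39A9 and SLC39A14, chosen after their values were seen, parted the 2 siRNAs. SLC39A14 had 2527 counts with siRNA 1 and 1294 with siRNA 2, against 1315 in the control, and SLC39A9 had 2907 and 1456 with the siRNAs and 1573 in the control. SLC39A1 had 2287 and 604 counts with the siRNAs and 1078 in the control, and is uncertain because it shares 60.8% of its exon bases with AL358472.7.

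**Figure D5:**
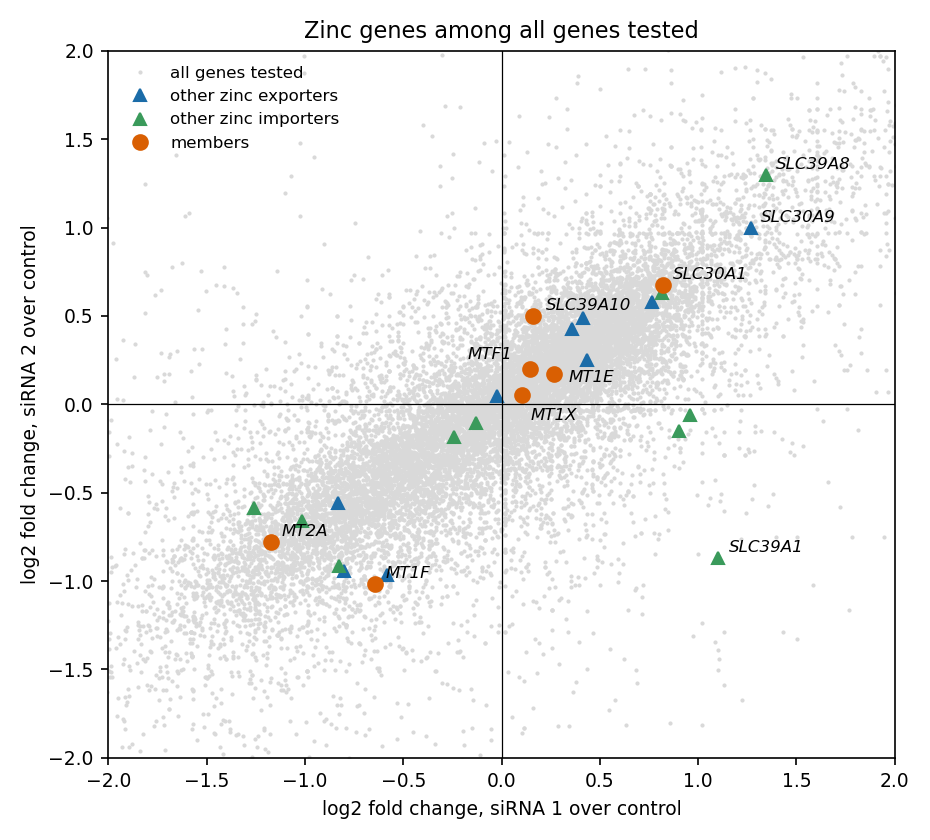
Log2 fold change over the control with siRNA 1 (horizontal) and siRNA 2 (vertical) for all 17263 genes tested (grey), the 7 tested members, the other zinc exporters and the other zinc importers. The axes stop at 2 on either side, which leaves 693 genes outside. Both axes share the control library. The members lie inside the cloud.

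Among 14 copper-handling genes, which include metallothionein partners in copper binding, none passed edgeR, as 0.0579% of all genes did. Under both siRNAs 7 were higher and 4 lower, against 41.9% and 41.6% of all genes. The median log2 fold change was 0.08 and 0.04 with siRNA 1 and siRNA 2. COX17, the chaperone that brings copper to cytochrome oxidase, had 172 and 193 counts with the siRNAs and 362 in the control (edgeR log2 fold change -1.0 ± 0.25, adjusted p 0.125). STEAP3, a metalloreductase, had 75 and 108 counts with the siRNAs and 193 in the control (edgeR adjusted p 0.143). COX17 shares 17.6% of its exon bases with POPDC2 on the same strand, which had only 3 and 4 counts with the siRNAs and 2 in the control. STEAP3 shares 11.0% with STEAP3-AS1 on the other strand, which had 0 and 0 counts with the siRNAs and 5 in the control. How reads in the shared bases were assigned is not given, so some uncertainty stays for both. SCO2, another cytochrome oxidase assembly factor, had 52 and 82 counts with the siRNAs and 164 in the control, and is uncertain because a second row of the same symbol overlaps 83.9% of its exon bases. Beyond the GC trend COX17 was at -1.40 and -1.21 with siRNA 1 and siRNA 2, STEAP3 at -0.78 and -0.44, and SCO2 at -0.52 and -0.20, against -1.60 and -1.02 as measured for SCO2.

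Genes of the metal and heat stress response were taken as a further readout that shares inducers such as cadmium with the metallothioneins. Of 15 tested none passed edgeR, as 0.0579% of all genes did. Under both siRNAs 5 were higher and 8 lower, against 41.9% and 41.6% of all genes. The medians on the log2 scale were -0.40 for siRNA 1 and -0.20 for siRNA 2, or -0.24 and 0.01 with the GC trend removed. HSPB1, a small heat shock chaperone, had 1580 and 1856 counts with siRNA 1 and siRNA 2, against 4046 in the control, an edgeR log2 fold change of -1.25 ± 0.19 with an adjusted p of 0.105. At 64.3% GC it was at -0.25 and -0.34 beyond the GC trend, against -1.34 and -1.16 as measured. HSPA1A had 1549 and 1712 counts with the siRNAs and 3153 in the control, and HSPA1B 283 and 330 with the siRNAs and 547 in the control. Beyond the GC trend HSPA1A was at -0.24 and -0.33, against -1.01 and -0.92 as measured, and HSPA1B at -0.24 and -0.23. HSPA1A and HSPA1B encode inducible Hsp70 from near-identical copies, and HSPA1B shares 36.5% of its exon bases with AL671762.1, so the counts of both are uncertain.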

How the data were processed

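The deposited table gives raw counts per gene and FPKM values for the same 3 libraries; the submitters made both. Bowtie 0.12.2 is named in the submitters' processing notes, as are GRCh38 and mm8 with no role stated; gene coordinates in the table are GRCh38. Not given in the sources used here are the counting program, its use of strand and its treatment of reads with several placements. The deposited FPKM matched the count over the summed length of distinct exons for 92.2% of 13597 genes within 0.5 bases.

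Counts were tested with edgeR 4.0.16 (R 4.3.3): TMM scaling, filterByExpr (minimum count 10), glmQLFit, glmQLFTest, Benjamini-Hochberg adjustment over 17263 genes and a threshold of 0.05. The 2 siRNA libraries against 1 control left 1 residual degree of freedom (prior 4.66). The test was also run on simulated data. For a single siRNA, the fold change is its log2 CPM minus that of the control (prior count 2); such values have no replicate check; ratios use TMM sizes and exact intervals at 95%. GC content was that of GENCODE 29 transcripts, and its trend was a lowess of fraction 0.3. TMM left the median log2 fold change of all genes at 0.02 and -0.01 with siRNA 1 and siRNA 2, against -0.12 and -0.07 with total counts.

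Alternatives were total count scaling, DESeq2 size factors, no filter, at least 1 CPM in every library, DESeq2 1.42.0, limma 3.58.1 on log2(FPKM + 1), the GC trend as offset, and each siRNA alone. The members and gene lists were chosen with earlier results of these data known. Genes named besides the members and DUOX2 are other metallothioneins with at least 10 counts in a library, up to 3 per list with the largest smaller fold change in the same direction with both siRNAs and at least 50 counts, and the 5 genes with at least 200 counts nearest to the metallothionein sum. MT3, SLC39A1, SLC39A9 and SLC39A14 fall outside this rule and were chosen after their values were seen.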

Additional observations from a re-analysis of the deposited data

How the results depend on the processing

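MT2A stayed below the control under all 7 alternative fits, at log2 fold changes between -1.06 and -0.68, and passed the threshold only in DESeq2 (-0.97, adjusted p 0.0337; adjusted p between 0.0337 and 0.425 over the alternatives). SLC30A1 stayed above it, between 0.25 and 0.75, and passed in none (adjusted p between 0.0892 and 0.621 over the alternatives). Its lowest value, 0.25, came with the GC trend as offset (adjusted p 0.621 in edgeR), and the next lowest, 0.62, with limma on FPKM. MT1X turned to -0.022 with total count scaling and to -0.019 with limma on FPKM, and SLC39A10 to -0.16 with the GC trend as offset; both were far from the threshold and the cause was not tested. MT1E, MT1F and MTF1 kept the direction of the fit over both siRNAs. With the GC trend as offset MT1F came to -0.26 and MTF1 to 0.03, and neither kept its direction with each siRNA once the trend was removed. DESeq2 gave no adjusted p for MT1F. With either siRNA left out there is no test, and log2 fold changes ran between -1.17 and -0.78 for MT2A, 0.17 and 0.27 for MT1E, 0.05 and 0.10 for MT1X, -1.02 and -0.64 for MT1F, 0.15 and 0.20 for MTF1, 0.68 and 0.82 for SLC30A1, and 0.16 and 0.50 for SLC39A10. The metallothionein sum, at a mean of -0.62, was at -0.34 with the GC trend removed and between -0.72 and -0.52 with each siRNA alone. Adding MT2P1 to MT2A, tried after seeing the data, gave -0.97 against -0.98.

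Of all genes, edgeR called 10, and 0 without a filter, with a minimum of 1 CPM in each library, or with the GC trend as offset; limma on FPKM called 0 and DESeq2 567. Genes at least 2-fold higher and lower with both siRNAs numbered 691 and 871, against 352 and 548 with at least 1 CPM in every library, 582 and 1072 with total count scaling, and 576 and 241 with the GC trend removed. A single control library limits every value, since a deviation of that library would move both siRNAs together. Depth limits MT1F, the pseudogenes and DUOX2. No paired analysis was possible because the control group has 1 library and its label carries no number.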

Other observations

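Glucocorticoids also induce MT2A and MT1X in human cells, so other genes that answer to these hormones were read beside them. Of 10 tested none passed edgeR, as 0.0579% of all genes did. Under both siRNAs 2 were higher and 6 lower, against 41.9% and 41.6% of all genes. The medians on the log2 scale were -0.20 for siRNA 1 and -0.09 for siRNA 2, or -0.31 and -0.26 with the GC trend removed. PER1, a clock gene with a glucocorticoid response element, had 273 and 351 counts with siRNA 1 and siRNA 2, against 817 in the control (edgeR log2 fold change -1.40 ± 0.24, adjusted p 0.112), and was at -0.58 and -0.51 beyond the GC trend. CEBPD had 227 and 313 counts with the siRNAs and 527 in the control, but was at 0.27 and 0.32 beyond the GC trend. DUSP1, a phosphatase of stress kinases, had 133 and 159 counts with the siRNAs and 231 in the control (edgeR adjusted p 0.199), and was at -0.35 and -0.25 beyond the GC trend.

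Genes on either side of the metallothionein cluster on chromosome 16 were also read. Of 7 tested none passed edgeR, as 0.0579% of all genes did. With both siRNAs 1 was higher and 5 lower, against 41.9% and 41.6% of all genes. The median log2 fold change was -0.16 and -0.19 with siRNA 1 and siRNA 2, or -0.32 and -0.40 with the GC trend removed. GNAO1, a G protein subunit, had 101 and 133 counts with the siRNAs and 282 in the control (edgeR adjusted p 0.12). OGFOD1 had 898 and 1028 counts with the siRNAs and 1413 in the control, and NUDT21, a factor of 3′ end processing, had 4687 and 5267 with the siRNAs and 3813 in the control. Beyond the GC trend NUDT21, the 1 neighbour that was higher as measured (0.32 and 0.43), was at -0.26 and -0.02, GNAO1 at -0.71 and -0.55, and OGFOD1 at -1.02 and -0.79.

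By the distance between pairs of log2 fold changes, over 3 libraries, the genes nearest to the metallothionein sum (-0.72 with siRNA 1 and -0.52 with siRNA 2) were SLC35E2B, BRMS1, CYTH2, DNAJB2 and FBXO17, at distances between 0.0073 and 0.015. Of the 10468 genes compared, 192 lay within 0.1, so the sum's pair of values is not particular to the metallothioneins. No other pair of values was given such a count, so whether this number is large was not tested.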
